A study of Mus musculus with 10 samples.

Results

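The 7 genes that encode the cyclin-dependent kinase inhibitors of the mouse, Cdkn1a, Cdkn1b, Cdkn1c, Cdkn2a, Cdkn2b, Cdkn2c and Cdkn2d, were followed through 10 RNA-sequencing libraries of utricular supporting cells. They were chosen by their GRCm38 gene symbols and by no measured value, and are 7 of the 21695 protein-coding genes listed. The cells came from explanted utricles of mice at postnatal day 21 that carry the Lfng-EGFP transgene, called Lfng-GFP in the labels, in which supporting cells fluoresce and can be sorted. Explants were cultured for 5 days with 10 μM TRULI, an inhibitor of the Hippo-pathway kinases Lats1 and Lats2, or with its solvent, DMSO, at 0.1%. Some were then kept for 5 more days with no treatment. The paper reports that TRULI also bound other kinases, some of them more strongly than Lats1. The labels give 3 DMSO and 3 TRULI libraries at day 5, and 2 DMSO and 2 TRULI libraries after the 5 days without treatment. The TRULI medium also held 0.1% DMSO, so that DMSO is common to every group. The methods call the replicates biological, while the labels do not say which libraries came from separate cultures, and the p-values measure the spread between these libraries. The sort selects on a reporter and therefore on the cells that still show it, which limits every group as a model of the whole epithelium.

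For 4 libraries the name of the deposited table disagrees with the sample label. The tables labelled TRULI at day 5, replicates 1 and 2, carry names for the DMSO withdrawal replicates 1 and 2 and are called pair A here. The tables labelled as the DMSO withdrawal replicates 1 and 2 carry names for TRULI at day 5, replicates 2 and 3, and are called pair B. One library is TRULI at day 5 by label, as replicate 3, and by name, as replicate 1, and is called the agreed TRULI library. The 3 DMSO libraries at day 5 and the 2 libraries taken after TRULI withdrawal have 1 condition in both. Each comparison was run with the labelled condition and again with the named one, and the values of single libraries are given by these 5 sets.

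Cyclin-dependent kinase inhibitors hold cells out of the division cycle. The Cip/Kip proteins, p21 from Cdkn1a, p27 from Cdkn1b and p57 from Cdkn1c, bind complexes of cyclins with their kinases and above all silence Cdk2. The Ink4 proteins, p16 from Cdkn2a, p15 from Cdkn2b, p18 from Cdkn2c and p19 from Cdkn2d, bind Cdk4 and Cdk6 and keep D-type cyclins from activating them. In either case the retinoblastoma protein stays unphosphorylated and holds E2F transcription factors in check. In the inner ear p27 is known for the timing of cell-cycle exit in sensory progenitors and for the quiescence of supporting cells, and p19 and p21 for keeping hair cells from re-entering the cycle.

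A pair of stretches of DNA near the start sites of members is shown because each holds letters that relate to a question of the data, whether p53 targets or E2F targets moved with the inhibitors. The windows come from RefSeq on GRCm38.p6 and run from 250 bases before to 50 bases after each annotated start. They matched 6 of the 7 members in 9 windows, with none for Cdkn1c. Both strands were searched for the p53-like spacing CATGNNNNNNCATG, the E2F core TTCCCGC and the TEAD core GGAATG, and no match of one lay within a match of another. The 250 bases before the upstream start of Cdkn1a lie at chr17:29090729-29090978 on the plus strand, with the p53-like match in capitals. The 30 bases of Cdkn2c lie at chr4:109666764-109666793 on the minus strand, before a RefSeq start but within the first exon of a longer GENCODE transcript, with the E2F core in capitals.
Cdkn1a: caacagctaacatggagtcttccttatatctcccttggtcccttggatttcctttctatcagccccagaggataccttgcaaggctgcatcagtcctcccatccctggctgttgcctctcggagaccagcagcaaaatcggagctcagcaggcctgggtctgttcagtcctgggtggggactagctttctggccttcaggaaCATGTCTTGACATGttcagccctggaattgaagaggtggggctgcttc
Cdkn2c: cggggcccggccTTCCCGCtcccgcggcgc
The p53-like match ends 34 bases before the Cdkn1a start and was found in 1 of the 9 windows of members, against 0.712% of all 32851 windows. The E2F core was found in 2 windows, that of Cdkn2c shown and 1 of Cdkn2a, against 4.6% of all windows. The TEAD core, the letters that the DNA-binding partners of Yap recognise, was in 0 of the 9 windows, against 14.7% of all. Such matches describe letters only, and the libraries hold no measurement of binding.

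Library facts that touch the members are few. The tables sum to between 2463872 and 6255149 counts, of which 1998009 to 5988066 fall on protein-coding genes. At these depths 3 counts, used as the floor of detection, are worth 0.55 to 1.4 CPM, counts scaled to the protein-coding total of the library, which covers counting error only. CPM carry TMM scaling factors set over all 10 libraries. The 9 supporting-cell markers had counts in every set and summed to 11100 to 17300 CPM in the day-5 DMSO, agreed TRULI and pair B libraries, and to 4470 to 7600 CPM in pair A and after TRULI withdrawal. The sort gene itself, Lfng, was at 343.0 to 656.1 CPM in the former 6 libraries and at 25.22 to 118.0 CPM in the latter 4. The mitochondrial ribosomal RNA mt-Rnr2 took 13.0 to 26.4% of all counts in those 6 and 1.45 to 2.53% in those 4. Ccn2, a target of Yap, was at 569.4 to 848.1 CPM in the agreed TRULI library and pair B, and at 2.383 to 18.16 CPM in the other 7. By deposited name, low mt-Rnr2 coincides with day 10 and high Ccn2 with the presence of TRULI, whereas by label each cuts across the groups. Summed hair-cell markers ran from 368 to 1400 CPM over the 10 libraries. The 4 muscle markers summed to 17.0 to 106 CPM in pair A and after withdrawal, against 0 to 2.79 CPM elsewhere. In pair A and after withdrawal that sum was the muscle factor Myod1 alone, with the other 3 muscle markers at 0.

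Levels per transcript length are given in FPKM (fragments per kilobase of transcript, scaled to the protein-coding total). The members are ordered here by their means, and their ranges overlapped. Cdkn2d and Cdkn1a were the most abundant, at 44.24 ± 20.07 and 43.51 ± 16.28 FPKM (mean ± SD, n = 10 libraries), at the percentiles 89.8 and 89.6 of protein-coding genes. These neighbours do not differ beyond their spread, and Cdkn2d was the higher of them in 3 of the 10 libraries. Cdkn1c followed at 27.03 ± 40.76 FPKM, a mean that its widest spread makes a poor summary, since its median was 10.48 FPKM. Cdkn1b had 7.79 ± 6.268 FPKM and Cdkn2b 4.649 ± 3.701 FPKM, and Cdkn1b was the higher in 6 of the 10 libraries. Cdkn2c, at 1.958 ± 3.939 FPKM, had a count in 5 libraries, and Cdkn2a, at 0.0543 ± 0.172 FPKM, in 1. The make-up of the summed inhibitor FPKM differed by set. Cdkn1a gave 35.2 to 46.0% of it in the day-5 DMSO libraries, Cdkn1c gave 48.1% in the agreed TRULI library, and Cdkn2d gave 48.0 to 62.1% after TRULI withdrawal. The estimated length of Cdkn1c ran from 776.6 to 1670 bases between libraries and that of Cdkn2c from 871.1 to 1569, so that their FPKM also carry a change in the transcripts assigned.

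**Figure D1:**
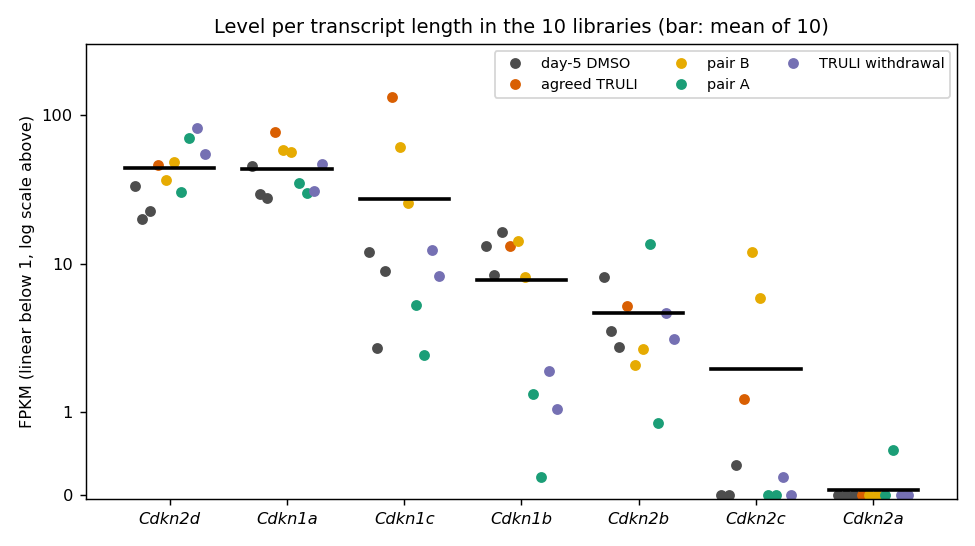
FPKM of each member (y axis, linear below 1 and logarithmic above) in each of the 10 libraries, coloured by set, with the mean of 10 as a bar. Cdkn2d and Cdkn1a stay above 20 FPKM in every library, Cdkn1c spans 2.424 to 132.1 FPKM, and Cdkn2a is at 0 in 9 libraries.

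Cdkn1a (ENSMUSG00000023067, chromosome 17, 29090976 to 29100727, plus strand) encodes p21, the inhibitor best known as a target of p53. It was at 71.24, 46.61 and 42.46 CPM in the day-5 DMSO libraries, 111.8 in the agreed TRULI library, 76.5 and 85.35 in pair B, 63.78 and 63.7 in pair A, and 54.71 and 93.11 after TRULI withdrawal. Its range over all 10 libraries was the narrowest of the members, 2.79-fold in FPKM. The highest library was the agreed TRULI library, and pair B lay above all of the DMSO libraries at day 5. At 5 days Cdkn1a had a log2 fold change of 0.58 ± 0.38 (SE) by label, where the groups overlapped, and of 0.77 ± 0.27 by name, where they did not (adjusted p = 0.488 and 0.161, edgeR). Neither the labels nor the methods state a pairing. In the grouping by name the replicate numbers were taken to pair libraries, from correlations in these same data. With that number as a replicate block Cdkn1a was called higher by name, at 0.79 (adjusted p = 0.0198, edgeR). None of the comparisons after withdrawal or between times had Cdkn1a called in either grouping.

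Cdkn1b (ENSMUSG00000003031, chromosome 6, 134920401 to 134925513, plus strand) encodes p27 and split the libraries into 2 groups with no overlap. It was at 23.28, 17.72 and 29.86 CPM in the day-5 DMSO libraries, 23.49 in the agreed TRULI library, and 22.86 and 16.96 in pair B. It was at 2.749 and 0.4275 CPM in pair A and at 3.483 and 1.92 CPM after TRULI withdrawal. The 4 low libraries held 15, 1, 17 and 8 counts and the 6 high ones 46 to 102, and pair A and the withdrawal libraries include the 3 largest tables. The lowest of these libraries is under the floor of 1.28 CPM for that table. The 4 low libraries are the same 4 in which mt-Rnr2 was at most 2.53% and Lfng at most 118.0 CPM. The part of mt-Rnr2 and of the supporting-cell markers in this difference was not tested, and in bulk libraries fewer cells with a transcript and less transcript in each cell cannot be told apart.

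The call for Cdkn1b depended on where pair A was placed. With TRULI present for 5 days the log2 fold change against DMSO was -1.40 ± 0.99 by label and -0.17 ± 0.31 by name (adjusted p = 0.513 and 0.849). The labelled groups overlap because the agreed TRULI library stood at the DMSO level, and without it the labelled value was -3.67 (adjusted p = 0.0125). By name the 3 TRULI libraries, at 16.96 to 23.49 CPM, overlapped the DMSO libraries. After withdrawal the TRULI libraries stood at -2.87 ± 0.71 against DMSO by label, with an adjusted p of 0.0731 that DESeq2 gave as 0.0149, and by name it was at 0.69 ± 1.25 and not called. Against the libraries with TRULI present, those with TRULI withdrawn fell by 2.92 ± 0.57 on the log2 scale by name (adjusted p = 0.0186), a 7.57-fold lower level. Restricted to the libraries on which label and name agree, the log2 fold change was -3.05 ± 0.65 (adjusted p = 0.0420, 2 withdrawn libraries against 1, whose variation was assumed to be that of the other groups). By label it was -1.67 ± 1.44 (adjusted p = 0.999). DMSO at 10 days against 5 days gave -3.67 ± 0.70 by name (adjusted p = 0.0125) and -0.23 ± 0.37 by label (adjusted p = 0.823). The fit by name holds the same libraries as the labelled fit at 5 days without the agreed TRULI library, so the 2 values are 1 result. Leaving out the library named TRULI at day 5 replicate 1 or 2 ended the first of the calls by name (adjusted p = 0.0731 and 0.0869), and leaving out the day-5 DMSO replicate 2 or 3 ended the last (adjusted p = 0.0715 and 0.0546). Without the library named TRULI replicate 1, the fit is the labelled comparison after withdrawal.

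Cdkn1c (ENSMUSG00000037664, chromosome 7, 143458339 to 143461050, minus strand) encodes p57 and belongs to an imprinted cluster, where the maternal copy is the active one. It was at 14.43, 2.697 and 9.662 CPM in the day-5 DMSO libraries and at 110.2 in the agreed TRULI library. Pair B had 48.07 and 22.27 CPM, pair A had 4.582 and 5.13, and the withdrawal libraries had 10.25 and 16.32. The 3 highest libraries are the same 3 with Ccn2 at 569.4 CPM or more, and each of them lay above all 7 others. At 5 days the rise was 6.74-fold by name, a log2 fold change of 2.75 ± 0.62 (adjusted p = 0.0370), with no overlap between groups. By label it was 2.17 ± 1.18 (adjusted p = 0.422), with pair A inside the range of the DMSO libraries. The call by name was lost on leaving out the library named TRULI replicate 1 or 2 or the DMSO replicate 2 or 3 (adjusted p = 0.0889, 0.0782, 0.155 and 0.115), with log2 fold changes from 2.00 to 2.89. It was also lost with all 10 libraries in one fit (adjusted p = 0.0626). Without the library named TRULI replicate 1, the fit holds the same libraries as DMSO at 10 against 5 days by label.

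After withdrawal the TRULI libraries lay below the DMSO libraries by label, at a log2 fold change in Cdkn1c of -1.41 ± 0.60 (adjusted p = 0.194), and above them by name, at 1.46 ± 0.86 (adjusted p = 0.9999). Neither was called, and without the withdrawal replicate 2 of TRULI the labelled value was called, at -1.77 (adjusted p = 0.0447). Between TRULI withdrawn and present the log2 fold change was -2.15 ± 0.66 by name (adjusted p = 0.0597, and 0.0232 with the replicate block) and -1.56 ± 1.30 by label (adjusted p = 0.999). Whether replicate numbers pair libraries between these times was not checked. DMSO at 10 days against 5 days was 2.00 ± 0.56 by label (adjusted p = 0.0889, and 0.0226 by DESeq2), since pair B is then the late DMSO group, and -0.86 ± 0.76 by name (adjusted p = 0.434). Hair-cell genes differed between the same libraries in part. Gfi1, a transcription factor of hair cells, was at 118.4 CPM in the agreed TRULI library, 62.73 and 16.17 in pair B, 11.71 to 27.35 in day-5 DMSO, 0.9164 and 0.4275 in pair A, and 13.11 and 1.44 after withdrawal. Pou4f3, another such factor, was highest after withdrawal in a library where Cdkn1c was at 10.25 CPM, with 204.7 CPM. The 9 hair-cell markers summed to 1260 CPM in the agreed TRULI library and 438 to 937 in pair B. In day-5 DMSO they had 368 to 628 CPM, in pair A 398 to 406, and after withdrawal 495 to 1400. The highest sum thus lay after withdrawal, where Cdkn1c was at 10.25 and 16.32 CPM. Of the 9 markers, 8 had counts in the agreed TRULI library and 8 in pair B. The 4 neuronal markers summed to 84.6 CPM in the agreed TRULI library, 10.3 and 57.7 in pair B, 6.73 to 22.4 in day-5 DMSO, 0.855 and 3.48 in pair A, and up to 56.1 after withdrawal. The part of the hair-cell and neuronal markers in the Cdkn1c difference was not tested.

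**Figure D2:**
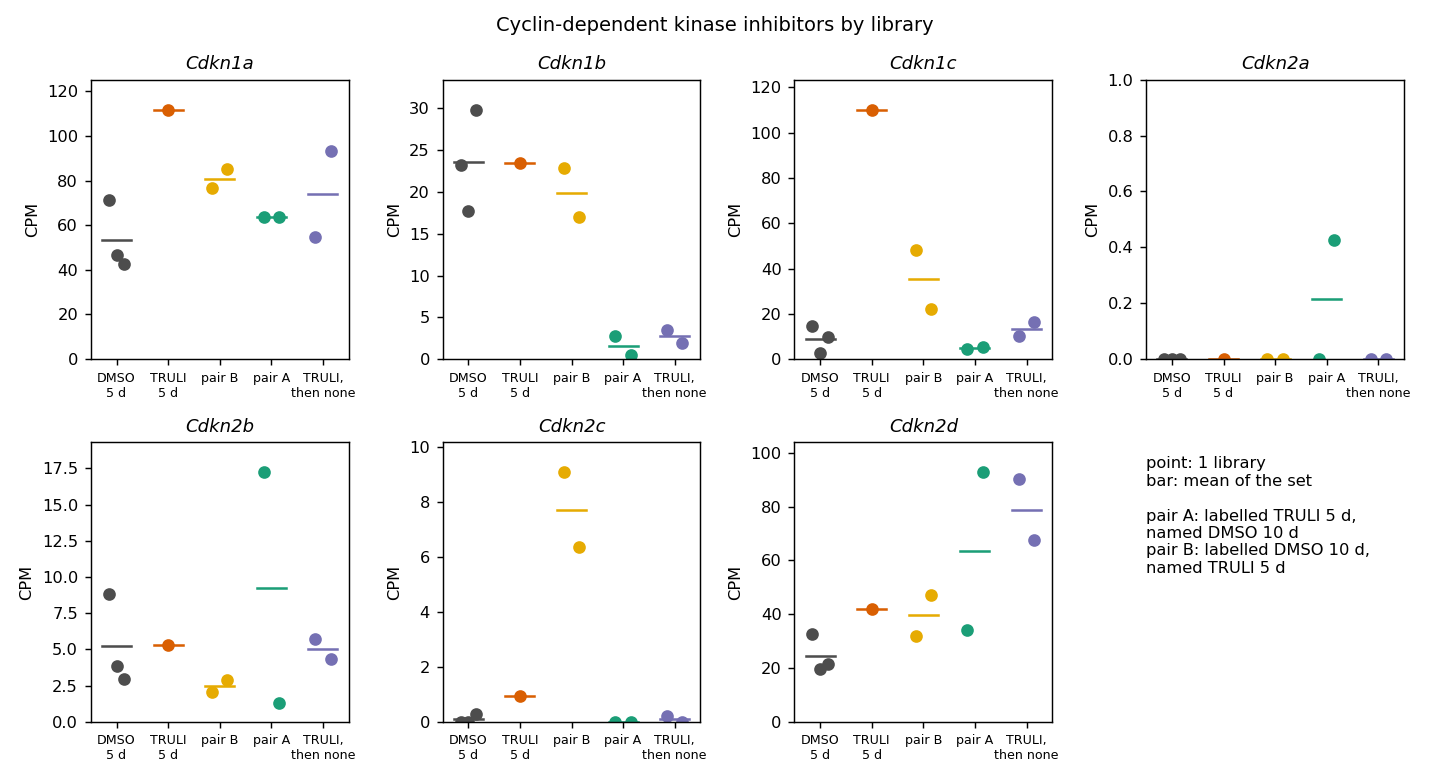
CPM (y axis, linear from 0) of each member in the 10 libraries, grouped by set on the x axis, where each point is 1 library and each bar the mean of its set. Cdkn1b is at or below 3.483 CPM in pair A and after withdrawal and at or above 16.96 CPM elsewhere, while Cdkn1c and Cdkn2c are highest in the agreed TRULI library and pair B respectively.

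The Ink4 genes ran from nearly undetected to abundant. Cdkn2a (ENSMUSG00000044303, chromosome 4, 89274471 to 89294653, minus strand), which encodes p16 and, from another first exon, the p53 activator Arf, had 1 count in all 10 libraries together, in pair A replicate 2. The other 9 libraries were at 0, which allows up to 0.55 to 1.4 CPM in each. The 2 products cannot be separated at the level of the gene. Cdkn2a passed the filter on low counts in no comparison, and without that filter it was not called in the 4 comparisons that include its count (adjusted p of 0.630 or more, edgeR). Its neighbour Cdkn2b (ENSMUSG00000073802, 89306299 to 89311039, minus strand) lies upstream of it, separated by 11645 bases, and encodes p15, known as a target of TGF-β signaling.

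Cdkn2b was detected in every library. It was at 8.847, 3.852 and 2.928 CPM in day-5 DMSO, 5.324 in the agreed TRULI library, 2.052 and 2.916 in pair B, 17.23 and 1.283 in pair A, and 5.737 and 4.32 after withdrawal. The highest and the lowest library of all 10 are thus the members of pair A, with 94 and 3 counts. No comparison had Cdkn2b called, and its sign differed between label and name in all 4 of them, from a log2 fold change of 0.65 ± 0.91 by label to -0.58 ± 0.61 by name at 5 days and from 1.001 ± 0.86 to -0.88 ± 1.14 after withdrawal.

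Cdkn2c (ENSMUSG00000028551, chromosome 4, 109660876 to 109667189, minus strand) encodes p18 and is known as a gene whose transcript rises in cycling cells. Its counts were 0, 0 and 1 in day-5 DMSO, 3 in the agreed TRULI library, 31 and 24 in pair B, 0 and 0 in pair A, and 1 and 0 after withdrawal. Pair B thus held 55 of its 60 counts, at 9.087 and 6.362 CPM, and only these libraries lay clear of the floor of 3 counts. Mki67, a marker of dividing cells, was at 149.2 and 66.53 CPM in pair B, 31.94 in the agreed TRULI library and at most 1.926 CPM in the other 7, so that the order of the 3 highest libraries was the same for both genes. By label DMSO at 10 days exceeded DMSO at 5 days, with a log2 fold change of 5.61 ± 1.01 (adjusted p = 0.0116). The counts behind it are 55 against 1, a ratio of 62.5 per library depth with an exact 95% interval of 10.8 to 2510 for counting error. The call was lost without the day-5 DMSO replicate 2 or either library of pair B (adjusted p from 0.0543 to 0.0826), and with all 10 libraries in one fit (adjusted p = 0.477). After withdrawal by label TRULI had 1 count against 55 with DMSO, with an adjusted p of 0.0601 in edgeR and 0.0199 in DESeq2.

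By name the same counts fall to TRULI at day 5. Cdkn2c then had 58 counts with TRULI against 1 with DMSO, a ratio of 45.6 (95% interval 7.87 to 1830), but did not pass the filter on low counts because the agreed TRULI library held 3. Without that filter it was called higher, at a log2 fold change of 5.11 ± 1.197 (adjusted p = 0.0150). It was not called with all 10 libraries in one fit (5.17, adjusted p = 0.115), nor, with the filter, without the day-5 DMSO replicate 1, 2 or 3 (adjusted p = 0.101, 0.195 and 0.123). With the filter and without the agreed TRULI library Cdkn2c was called, at 5.61 (adjusted p = 0.0116, edgeR). That fit holds the same libraries as DMSO at 10 against 5 days by label. On withdrawal of TRULI it was called lower by name, with 1 count against 58, at -5.28 ± 1.49 (adjusted p = 0.0476). That call was lost with the replicate block (adjusted p = 0.140). It was also lost without either withdrawal library and without the library named TRULI at day 5 replicate 1 (adjusted p = 0.0601). The last of these fits holds the same libraries as the labelled comparison after withdrawal.

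Cdkn2d (ENSMUSG00000096472, chromosome 9, 21288410 to 21291407, minus strand) encodes p19 and was the only Ink4 gene with a level near that of Cdkn1a. It was at 32.6, 19.65 and 21.37 CPM in day-5 DMSO, 41.97 in the agreed TRULI library, 31.95 and 47.18 in pair B, 34.27 and 92.77 in pair A, and 90.16 and 67.43 after withdrawal. All but 1 of the 7 libraries outside day-5 DMSO lay above its highest value, the exception being the library of pair B at 31.95 CPM. Its fold change was above 0 in all 8 comparisons, 4 by label and 4 by name, and was called in none of them by edgeR. The largest were 1.1995 ± 0.48 at 5 days by label (adjusted p = 0.345) and 1.39 ± 0.48 for DMSO at 10 against 5 days by name (adjusted p = 0.0684, and 0.0370 by DESeq2). TRULI withdrawn against present gave 0.98 ± 0.33 by name, with no overlap between groups (adjusted p = 0.0784, and 0.0361 by DESeq2).

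**Figure D3:**
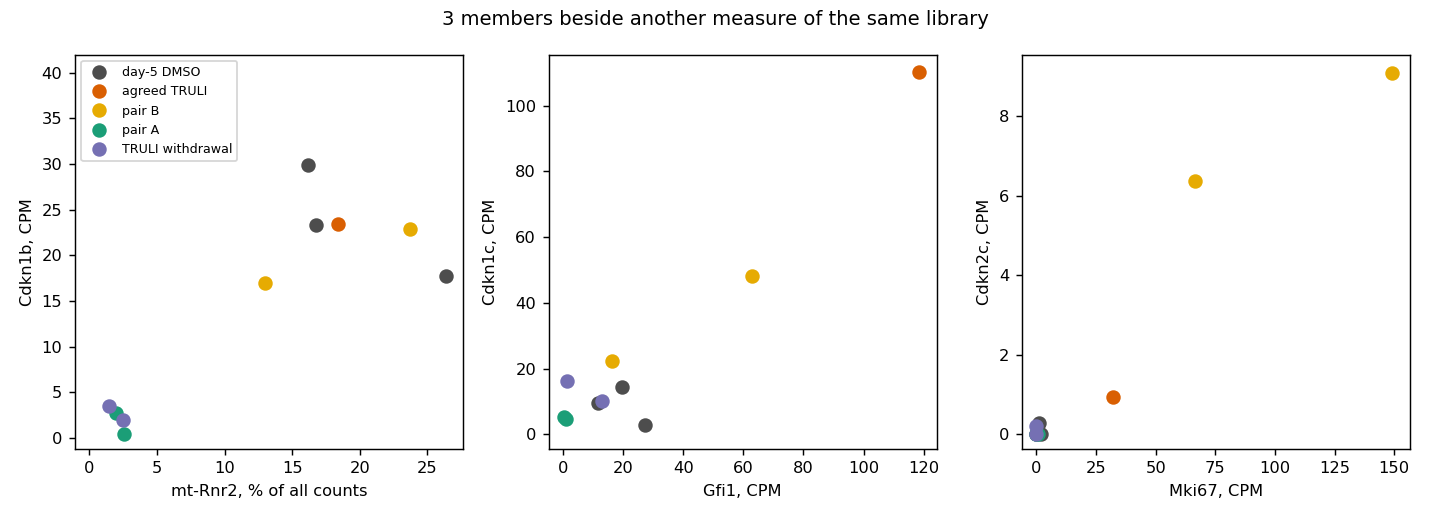
Cdkn1b against the share of mt-Rnr2, Cdkn1c against Gfi1 and Cdkn2c against Mki67, 1 point for each of the 10 libraries, on linear axes in CPM or percent of all counts, coloured by set. Cdkn1b falls into the same 2 clusters as mt-Rnr2, and the library with the most Cdkn1c (110.2 CPM) also has the most Gfi1 (118.4 CPM), as pair B replicate 1 has for Cdkn2c and Mki67.

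The first comparison asks what differs while TRULI is present. By label 0 of the 5 members tested were called at 5 days by edgeR or by DESeq2. Cdkn2d alone had an unadjusted p under 0.05 in edgeR. Of all 10646 genes 0.00939% were called by edgeR and 2.56% by DESeq2. The median log2 fold change of the members was 0.65, against 0.04 for all genes tested. By name 1 of 5, Cdkn1c, was called higher and 0 lower, where 3.56% of all genes were called, 2.28% higher and 1.28% lower, and with the replicate block 2 members were called, Cdkn1a and Cdkn1c, where 10.9% of all genes were. The median was 0.72 against 0.01 for all genes, and 3 of the 5 values lay above 0. Cdkn2a and Cdkn2c did not pass the filter in either grouping.

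The second comparison asks what is left of the response after TRULI is removed. By label 0 of 6 members were called by edgeR, where 2.29% of genes were (1.14% higher and 1.15% lower), with 4 members at an unadjusted p under 0.05 and 2 called lower by DESeq2, Cdkn1b and Cdkn2c, where DESeq2 called 12.6% of all genes, 5.25% lower. The median of the 6 was -0.78, against -0.0023 for all genes. By name 0 of 5 were called by either tool, and 0 had an unadjusted p under 0.05. Of all genes 0% were called by edgeR and 0.461% by DESeq2. The difference of the TRULI effect between the 2 times, tested as an interaction over all 10 libraries, was called for 0 of 6 members in either grouping, and for 0% of all genes. By label the lowest p was that of Cdkn2c (log2 difference -6.90 ± 2.56, unadjusted p = 0.0199, adjusted p = 0.645), and no other member had an unadjusted p under 0.05 in either grouping. A design of 2 and 3 libraries a group limits the precision of each of these differences.

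The comparisons within a treatment ask what changed between the times. By label TRULI withdrawn against TRULI present had 0 of 5 members called by edgeR and by DESeq2, and 0 at an unadjusted p under 0.05. Of all genes edgeR called 0% and DESeq2 0.0349%. By name the same comparison had 2 of 6 members called lower, Cdkn1b and Cdkn2c, and 0 higher. There 14.8% of genes were called, 6.37% lower and 8.40% higher. For DMSO at 10 against 5 days 1 of 6 members was called higher by label, Cdkn2c, and 0 were lower, where 2.73% of genes were called, 2.20% higher and 0.531% lower. By name 1 of 5 was called lower, Cdkn1b, and 0 were higher, where 20.2% of genes were called, 8.36% lower and 11.8% higher. These comparisons share libraries with one another and their values are not independent. In the grouping by name, day 10 coincides with low mt-Rnr2, and the time and that difference between libraries cannot be told apart.

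**Figure D4:**
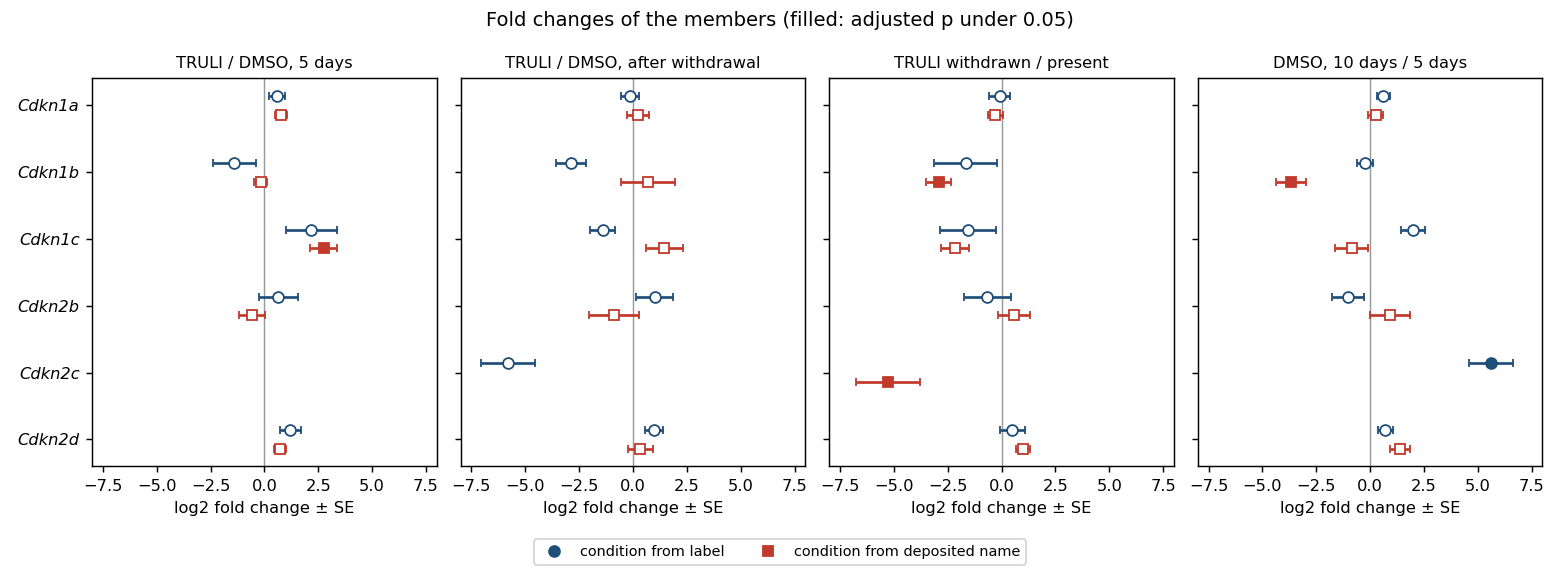
Log2 fold change ± SE (x axis) of the 6 members that passed the filter in at least 1 comparison, in 4 panels for the 4 comparisons, with the condition from the label as circles and from the deposited name as squares, filled where the adjusted p is under 0.05. Filled points are Cdkn1c at 5 days by name, Cdkn1b and Cdkn2c for TRULI withdrawn against present by name, and for DMSO at 10 against 5 days Cdkn2c by label and Cdkn1b by name.

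The kinases that the members inhibit and the cyclins that activate them were described from lists. Beside these and the later lists, 0.00939% of all genes were called at 5 days by label. By name 2.28% of all genes were called higher at 5 days and 1.28% lower. By label at 5 days 0 of the 9 cyclins and kinases tested were called, at a median log2 fold change of 0.98. By name 5 of 13 were called higher and 0 lower, at a median of 0.89. They were the mitotic cyclin Ccnb1 at 4.80 ± 0.71 (adjusted p = 0.00610), the S-phase cyclin Ccna2 at 3.96 ± 0.59 (adjusted p = 0.00639), their kinase Cdk1 at 4.21 ± 0.66 (adjusted p = 0.00780), the G1 cyclin Ccnd1 at 2.99 ± 0.49 (adjusted p = 0.00948) and Ccne1, the cyclin of Cdk2, at 3.11 ± 0.72 (adjusted p = 0.0399). Cdk4 and Cdk6, the kinases that Ink4 proteins bind, were named for that role after their values were seen, and had 0.59 ± 0.28 and 0.88 ± 0.42 by name (adjusted p = 0.329 and 0.320). Ccnd1 was at 509.2 CPM in the agreed TRULI library and 895.5 and 1166 in pair B, at 37.28 to 174.7 in day-5 DMSO, 64.68 and 72.88 in pair A, and 290.0 and 117.1 after withdrawal. The 3 libraries highest for Ccnd1 were also the 3 highest for Cdkn1c, although the agreed TRULI library had the most Cdkn1c and the least Ccnd1 of the 3. Of the pocket proteins and E2F factors 0 of 11 were called by label and 1 of 11 by name, E2f1, the transcription factor that the retinoblastoma protein restrains, at 2.95 ± 0.64 (adjusted p = 0.0313). E2f1 was at 0.7705 to 2.05 CPM in day-5 DMSO, 4.698 in the agreed TRULI library and 14.36 and 11.93 in pair B. It was as high where Ccnd1 was not, at 14.3 and 13.25 CPM in pair A and 13.93 and 8.879 after withdrawal.

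Genes that degrade the inhibitors include parts of several ubiquitin ligases. By label 0 of 13 were called at 5 days and by name 2 of 14 were higher. Dtl, which with Cul4 and Pcna marks p21 for destruction, rose by 6.63 ± 0.79 on the log2 scale (adjusted p = 0.00218), and Cks1b, the cofactor of Skp2 in marking p27, by 1.90 ± 0.41 (adjusted p = 0.0310). Dtl held 0, 3 and 1 counts in day-5 DMSO, none above the floor of 3, so the size of its rise rests on few counts. It was at 19.1 CPM in the agreed TRULI library and 48.95 and 89.59 in pair B. In pair A it was at 3.482 and 48.74 CPM, and after withdrawal at 14.55 and 2.4 CPM. Skp1a, a core part of the Skp2 ligase, was chosen after its values were seen, since it followed Cdkn1b. It was at 3028 to 8465 CPM in the 6 libraries with high Cdkn1b and at 316.0 to 609.4 CPM in the 4 with low Cdkn1b. In TRULI withdrawn against present by name it fell by 3.26 ± 0.39 (adjusted p = 0.00815). Its call after withdrawal by label was also lower, at -3.17 ± 0.42 (adjusted p = 0.0287).

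Transcription factors that control the inhibitors were called in small numbers. By label 0 of 23 were called at 5 days. By name Myc, a repressor of Cdkn1a and Cdkn2b, was higher at 3.13 ± 0.46 (adjusted p = 0.00575), Trp53 at 1.34 ± 0.31 (adjusted p = 0.0385), and the Notch effector Hes1 was lower at -1.11 ± 0.27 (adjusted p = 0.0468). Trp53, the gene of p53, was at 13.5 to 17.86 CPM in day-5 DMSO and at 29.9 to 66.18 in the other 7 libraries. Of the genes known as p53 targets other than Cdkn1a, 0 of 14 were called by label and 3 of 15 were called higher by name, at a median of 0.68 against 0.01 for all genes. They were Eda2r, a receptor of the TNF family, at 4.61 ± 0.74 (adjusted p = 0.00919), the atypical cyclin Ccng1 at 1.47 ± 0.27 (adjusted p = 0.0163) and the Akt inhibitor Phlda3 at 1.25 ± 0.30 (adjusted p = 0.0453). Mdm2, the p53 target that degrades p53, had 0.68 ± 0.21 by name (adjusted p = 0.117). Ccng1 was at 102.0 to 191.8 CPM in day-5 DMSO and at 316.3 to 740.5 CPM in the other 7, with its highest value in pair A, where Cdkn1a was at 63.7 CPM.

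Genes with a like name or a near position were set beside the members. Cdkn3, a phosphatase that acts on Cdk2 and belongs to another protein family, was at no more than 0.5862 CPM in any library. Cdkn2aip and Cdkn2aipnl were the 2 tested genes of that list, and 0 were called at 5 days in either grouping. Cdkn2aipnl, chosen after its values were seen, rose between DMSO at 5 and 10 days by name at 2.65 ± 0.31 (adjusted p = 0.00520), from 42.37 to 68.22 CPM in day-5 DMSO to 299.7 and 367.2 CPM in pair A. Of the 11 neighbours on chromosomes 4 and 7, 0 of 7 tested were called at 5 days by label and 0 of 6 by name. Phlda2, another maternally expressed gene of the Cdkn1c cluster and likewise chosen after its values were seen, was highest in other libraries than Cdkn1c, with 25.66 and 84.22 CPM in pair A and 21.72 and 47.75 after withdrawal against 0.2931 to 5.856 in the other 6. It was called higher in TRULI withdrawn against present by name, at 4.87 ± 0.74 (adjusted p = 0.0116), where Cdkn1c stood at -2.15. Kcnq1ot1, the noncoding RNA of the control region of the cluster, was at 27.3 to 82.05 CPM and was not tested.

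The genes most alike each member in pattern were taken by Pearson's r of log2(CPM + 1) over the 10 libraries, among 8684 genes with a mean above 10 CPM. For Cdkn1b they were Ap2b1, Clcn7 and Otoa, at r from 0.986 to 0.993, and these 10 points are the 2 clusters of libraries already named. For Cdkn1a they were Tbrg1, Stc1 and Dgat2 (r from 0.933 to 0.957), and for Cdkn1c Ahnak, Clic5 and Ppp1r12b (r from 0.901 to 0.911). Libraries share depth, mt-Rnr2 share and set in these correlations, which are given as descriptions. Cdkn2a, Cdkn2b and Cdkn2c were too low for this search.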

How the data were processed

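RNA of sorted supporting cells was sequenced in 10 libraries. Reads were aligned by the authors to GRCm38 (mm10) using STAR, and the deposited tables hold expected counts of each gene, not normalized, beside its effective length. The counting program is not given in the sources used here. Library kits differ between the methods (QIAseq FX) and the labels (a poly(A) kit), and strand use in counting is not stated, so overlapping genes can share reads. Expected counts were rounded and protein-coding genes (GENCODE M21) were filtered with filterByExpr, scaled by TMM and compared with edgeR 4.0.16 (R 4.3.3, quasi-likelihood test, Benjamini-Hochberg adjusted p under 0.05), with 2 groups in each fit. An SE is the log2 fold change divided by the root of F. Alternatives were DESeq2 1.42.0, its size factors in edgeR, a replicate block, a fit of all 10 libraries, genes of every biotype, no filter, libraries with agreeing condition alone and each library left out. In the grouping by name, same-numbered libraries at 5 days deviated together (correlations 0.188, 0.309 and 0.375), so their numbers were taken to pair them. Pairing between the times was not checked, although the block was also used there. No libraries were duplicates (chi-square per degree of freedom at least 15.3). On simulated counts with 4-fold changes edgeR recovered 176 of 195 changed genes at 5 days with 8 false calls among 10801 genes, and 139 of 199 after withdrawal with 7 among 11614. The simulated dispersion was 0.1. The root of the dispersion fitted by label was 0.48 at 5 days and 0.45 after withdrawal. The simulated counts thus varied less than these data, and the recovery does not give the power for them. Members, lists and tests were chosen with earlier results of these data known. Named genes were all 7 members, and of each list up to 5 called genes with the lowest p at 5 days. Others, such as Cdk4, Cdk6, Mdm2, Skp1a, Cdkn2aipnl, Phlda2, Kcnq1ot1, Cdkn3 and single marker genes, lie outside this rule and were chosen after their values were seen. The genes most alike Cdkn2d in pattern are not reported here.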

Additional observations from a re-analysis of the deposited data

How the results depend on the processing

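Taking the condition from the deposited name in place of the label moved the members called higher at 5 days from 0 to 1, those called lower with TRULI withdrawn against present from 0 to 2, and those of DMSO at 10 against 5 days from 1 to 0 higher and from 0 to 1 lower. It reversed the log2 fold change of Cdkn2b to -0.58 at 5 days, 0.58 for TRULI withdrawn against present and 0.91 for DMSO between the times, that of Cdkn1c between those times to -0.86, after withdrawal those of Cdkn1a, Cdkn1b, Cdkn1c and Cdkn2b to 0.22, 0.69, 1.46 and -0.88, and in the interaction those of Cdkn1b and Cdkn2b to 0.76 and -0.33. With the libraries of agreeing condition alone, 1 of them with TRULI present, Cdkn1b was lower for TRULI withdrawn against present. By label, DESeq2, no filter and the replicate block each called 2 lower after withdrawal and 2 higher for DMSO at 10 against 5 days, where all 10 libraries in one fit called 0 higher. Calls over all genes rose too, after withdrawal from 1.15% lower to 5.25, 3.72 and 7.62% under these 3 settings, and for DMSO from 2.20% higher to 3.07, 3.92 and 3.35%. By name at 5 days no filter and the replicate block called 2 higher and all 10 libraries in one fit 0, where 2.85, 6.0 and 0.674% of all genes were called higher, against 2.28%. For DMSO at 10 against 5 days by name DESeq2, no filter and all 10 libraries in one fit each called 1 higher. At these settings 14.2, 11.4 and 11.7% of all genes were called higher. By name DESeq2 also called 1 higher for TRULI withdrawn against present, where 13.3% of all genes were called higher.

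The replicate block reversed Cdkn1a, Cdkn1b and Cdkn1c by label in TRULI withdrawn against present, to 0.17, 0.97 and 1.41, and Cdkn2b by name in DMSO at 10 against 5 days, to -0.047. The labelled numbers did not pair the libraries at 5 days (correlations -0.148, 0.056 and -0.187), and the block called 0 members there.

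Leaving out each library in turn gave by label 0 to 1 member called lower at 5 days, 0 to 3 lower after withdrawal, and 0 to 2 higher for DMSO at 10 against 5 days. The 1 lower arose without the agreed TRULI library, where 8.36% of all genes were called lower. After withdrawal each fit left 1 library in a group, and the highest counts arose without the TRULI withdrawal replicate 1 or 2. Larger shares of all genes were called lower in those fits than with every library. For DMSO at 10 against 5 days by label, 1.3 to 2.34% of all genes were called higher where at least 2 libraries stayed in each group. By name it gave 0 to 1 higher at 5 days, 0 to 2 lower for TRULI withdrawn against present, and 0 to 1 lower and 0 to 1 higher for DMSO at 10 against 5 days. Where at least 2 libraries stayed in each group by name, 0.411 to 2.35% of all genes were called higher at 5 days. For TRULI withdrawn against present 0.209 to 2.44% were called lower. For DMSO at 10 against 5 days 0 to 2.35% were called lower and 0 to 4.2% higher. For both comparisons between the times, the counts of members by name also cover fits that left 1 library in a group. Larger shares of all genes were called in those fits. Signs turned within the following ranges of log2 fold change. By label Cdkn1c ran from -0.86 to 2.70 and Cdkn2b from -0.61 to 1.26 at 5 days, Cdkn1a from -0.56 to 0.20 after withdrawal, and for TRULI withdrawn against present Cdkn1a from -0.50 to 0.24, Cdkn1b from -2.22 to 0.69, Cdkn1c from -2.14 to 1.46 and Cdkn2b from -1.14 to 0.57. By name Cdkn1b ran from -0.35 to 0.041 and Cdkn2b from -1.01 to 0.012 at 5 days, Cdkn1a from -0.20 to 0.54, Cdkn2b from -1.75 to 1.95 and Cdkn2d from -0.23 to 1.22 after withdrawal, Cdkn1a from -0.71 to 0.034 for TRULI withdrawn against present, and Cdkn2b from -1.96 to 1.76 for DMSO at 10 against 5 days. With 1 library left in a group, its variation was assumed to be that of the other group. The cause of these changes was not tested. Of 238 values of single members under alternatives other than leaving out a library, 199 kept their sign and their side of the threshold. Comparisons with the DMSO withdrawal group could not be made on agreeing libraries alone, since none is left. Cdkn2a and Cdkn2c are limited by depth, at no more than 3 counts in 10 and 8 of the 10 libraries.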
